A study of Mus musculus with 230 samples.

Results

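Axon guidance ligands and receptors were followed across 6 brain regions in male C57BL/6J mice trained to self-administer cocaine or saline. The genes were chosen by name and by level. They were the protein-coding genes whose symbol begins with Sema, Plxn, Epha, Ephb, Efna, Efnb, Robo, Ntn or Unc5, or is Slit followed by a number, with a mean of at least 1 CPM (counts scaled to a common library size) in at least 1 region of mice that had self-administered saline and received no injection. Of 69 genes with such names in a table of 43346 genes, 66 met the level: 20 semaphorins, 9 plexins, 8 EphA and 5 EphB receptors, 4 ephrin-A and 3 ephrin-B genes, 3 Slits, 4 Robo receptors, 5 netrins and 5 genes named Unc5. One of the last, Unc50, shares only the letters of its name with the netrin receptors.

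The study had 230 RNA-seq libraries, each from 1 region of 1 mouse, and 45 mice in 6 states. S24 and C24 mice (8 each) had self-administered saline or cocaine and were taken after 24 h of withdrawal without an injection. SS, SC, CS and CC mice (8, 8, 6 and 7) had 30 d of withdrawal and then 1 intraperitoneal injection, with tissue taken 1 h afterwards. Their first letter gives the solution self-administered and the second the solution injected, S for saline and C for cocaine. The striatum was sampled as its dorsal part (CPu) and as the nucleus accumbens (NAc), the pallium as prefrontal cortex (PFC), ventral hippocampus (vHipp) and basolateral amygdala (BLA), and the midbrain as the ventral tegmental area (VTA). Age and doses are not given in the labels.

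Semaphorins, netrins, Slits and ephrins are cues that steer growing axons, and plexins, Unc5 receptors, Robo receptors and Eph receptor tyrosine kinases are the receptors that read them. Ephrins sit on the cell surface and pass signals in both directions, Slits repel through Robo1 and Robo2, and netrin-1 attracts through Dcc and repels through Unc5 receptors. In the adult brain many of these genes stay on, and some are known for roles in synapses, myelin or blood vessels: Robo4 and Ephb4, for example, are receptors of endothelial cells.

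The total count per library was 11866570 to 42135683. Within their region 26 of the 230 libraries stood apart in total count or in the mean log2 level of a marker list, none of them SS. The rule was over 5 median absolute deviations and at least 1 log2 unit from the regional median. By summed level, 1 SS library of vHipp, that of mouse-035, reached 1061 CPM of leptomeningeal markers, where the SS median of vHipp was 169. In the 39 SS libraries the markers matched the labelled regions, except in BLA. The summed level of 4 dopamine neuron markers had a median of 3795 CPM in VTA and at most 35.6 in any other region, that of 6 striatal neuron markers 5477 in CPu and 2954 in NAc, and that of 4 cortical type glutamatergic markers 1839 in PFC and 1367 in vHipp. The BLA libraries were mixed: their striatal marker sum ran from 193.9 to 1279 CPM, with a median of 750. Their cortical type glutamatergic sum ran from 410.6 to 1417 CPM, with a lower median of 682. The VTA libraries held the most oligodendrocyte RNA, with a median sum over 9 markers of 17494 CPM against medians of 1865 to 7434 elsewhere. In PFC this sum ran from 3056 to 16016 CPM.

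Most of the chosen genes were detected in all 6 regions, and their levels differed between regions mostly by a few fold. In the S24 libraries 64 of the 66 averaged at least 1 CPM in all 6 regions, the exceptions being Ntn5 and Epha2. Epha2 lay just inside the level, with its highest regional mean of 1.26 CPM in VTA. Just outside were Efna4 (0.675 CPM), Unc5cl (0.643 CPM) and Epha1 (0.584 CPM). Since the S24 libraries chose the genes, regions were tested in the SS libraries, which came from other mice, with edgeR's quasi-likelihood test and Benjamini-Hochberg adjustment over 17112 genes. In SS, 65 of the 66 differed between the 6 regions at an adjusted p under 0.05, where 87.2% of all genes tested did, so the count by itself says little of these genes. The exception was Unc50 (adjusted p = 0.226). The median fold between the highest and the lowest regional mean was 3.34 for the 66 genes and 1.72 for 14206 protein-coding genes with a regional mean of at least 1 CPM in SS. A fold over 2 was found for 77.3% of the 66 and 39.6% of the protein-coding genes, and a fold over 4 for 36.4% and 17.5%. In bulk tissue fewer cells of a type and less RNA per cell cannot be told apart, here and in every difference below.

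The highest regional mean in SS fell in vHipp for 24 genes, in VTA for 13, in NAc and PFC for 8 each, in CPu for 7 and in BLA for 6. The lowest fell in CPu for 26 and in VTA for 17. The highest region was the same in S24 and SS for 52 of the 66 genes and the lowest for 51, where the S24 libraries had also chosen the genes. No such counts over all genes stand beside these, so they do not set the 66 genes apart. Each region was then compared with the mean of the other 5. At an adjusted p under 0.05 (edgeR), vHipp had 34 of the 66 genes higher and 18 lower, where 25.8% and 22.0% of all genes were called. In CPu 16 were higher and 33 lower (27.9% and 29.3% of all genes), in VTA 21 and 25 (32.7% and 35.1%), in NAc 15 and 23 (22.6% and 21.5%), in PFC 26 and 11 (22.8% and 19.8%) and in BLA 25 and 13 (18.3% and 12.1%). With the mouse as a block the 11 lower genes of PFC became 7, where no count over all genes is given. The median log2 difference of the 66 genes was 0.23 in vHipp and -0.25 in CPu.

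**Figure D1:**
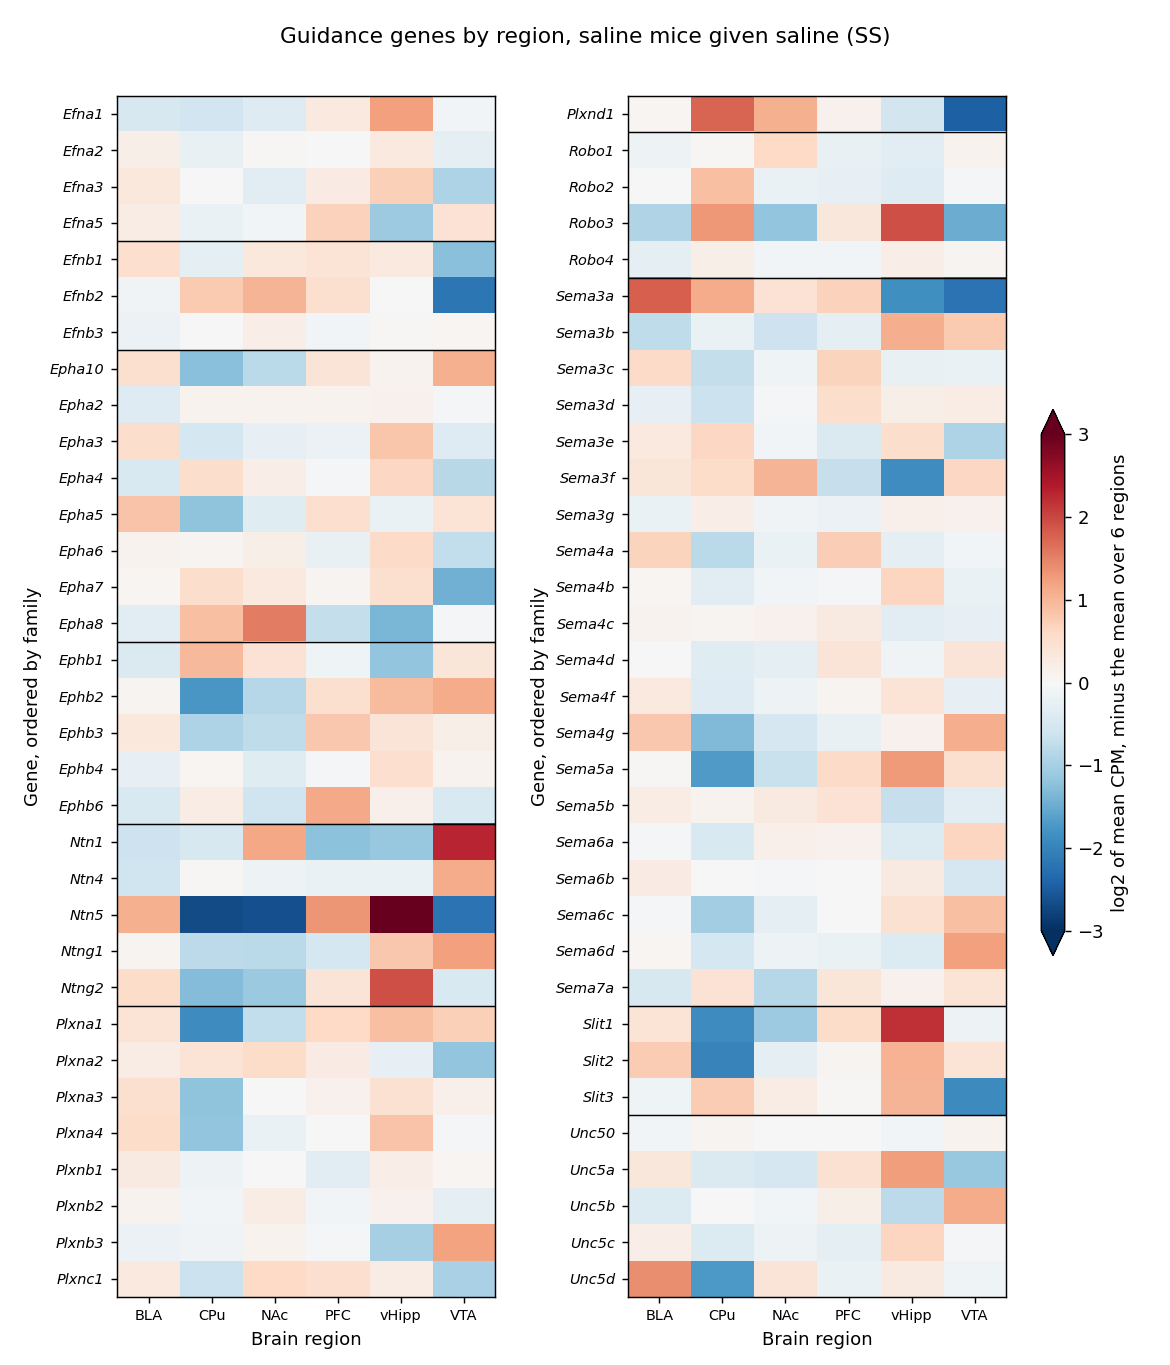
Each row is a gene, ordered by family, and each column a region. The color is the log2 of the mean CPM over the SS libraries of that region (6 or 7 libraries) minus the mean of the 6 regional values, so red is above and blue below the gene's own average. The CPu column holds blue for Slit1, Slit2, Ephb2, Plxna1 and Sema5a beside red for Plxnd1 and Ephb1.

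A stricter count asked for a log2 difference of at least 1 as well. By it, 13 genes were higher in vHipp (6.45% of all genes) and 7 lower (5.25%), 10 higher in VTA (8.97%) and 14 lower (10.4%), and 6 higher in CPu (6.17%) and 15 lower (8.36%). In NAc 5 were higher (3.89%) and 6 lower (4.06%), in BLA 4 higher (3.66%) and 1 lower (1.03%), and in PFC 2 higher (5.27%) and 1 lower (3.42%). The mean of BLA, PFC and vHipp was above the mean of CPu and NAc by this count for 14 genes (7.87%) and below it for 5 (5.01%). NAc was above CPu for 7 genes (3.32%) and below it for 3 (1.99%).

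To show what lies upstream of genes with unlike regional patterns, 200 bases before the start of 5 of them are printed: Ntn5, highest in vHipp, Plxnd1, highest in CPu, Epha8, highest in NAc, Ephb6, highest in PFC, and Sema6d, highest in VTA. They are RefSeq promoter sequences in build GRCm38.p6, found for 57 of the 66 genes, written in the direction of the gene. Capitals mark each CG dinucleotide. The stretch ends 1 base before the annotated start, except for Ephb6, where it runs from 229 to 30 bases before it.
Ntn5, chr7:45683822-45684021, plus strand: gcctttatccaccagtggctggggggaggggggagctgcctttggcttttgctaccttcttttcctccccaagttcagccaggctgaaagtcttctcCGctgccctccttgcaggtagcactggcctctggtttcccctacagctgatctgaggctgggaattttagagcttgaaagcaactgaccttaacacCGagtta
Plxnd1, chr6:115995006-115995205, minus strand: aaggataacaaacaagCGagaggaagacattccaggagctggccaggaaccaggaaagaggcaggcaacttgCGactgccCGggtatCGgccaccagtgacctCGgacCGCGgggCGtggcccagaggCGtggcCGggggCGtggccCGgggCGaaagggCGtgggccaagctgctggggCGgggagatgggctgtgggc
Epha8, chr4:136956817-136957016, minus strand: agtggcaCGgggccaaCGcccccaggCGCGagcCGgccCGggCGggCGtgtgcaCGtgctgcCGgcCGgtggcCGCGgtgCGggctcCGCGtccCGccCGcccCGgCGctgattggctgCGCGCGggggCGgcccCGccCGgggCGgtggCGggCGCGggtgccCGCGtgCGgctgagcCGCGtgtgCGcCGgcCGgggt
Ephb6, chr6:41605282-41605481, plus strand: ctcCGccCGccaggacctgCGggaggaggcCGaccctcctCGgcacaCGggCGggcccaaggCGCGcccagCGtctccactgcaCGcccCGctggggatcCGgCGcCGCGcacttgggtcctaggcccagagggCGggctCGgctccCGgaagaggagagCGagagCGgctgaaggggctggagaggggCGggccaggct
Sema6d, chr2:124089769-124089968, plus strand: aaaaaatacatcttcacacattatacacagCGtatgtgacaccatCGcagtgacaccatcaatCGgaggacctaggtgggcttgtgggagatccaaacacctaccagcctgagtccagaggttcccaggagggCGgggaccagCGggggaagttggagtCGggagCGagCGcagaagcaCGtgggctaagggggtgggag
The 5 stretches held 2, 15, 38, 22 and 9 CG dinucleotides in the order given, where the median over 32851 promoter stretches of that length was 5. The Epha8 stretch was the richest of the 5 in G and C, at 85.5%, and Ntn5 the poorest, at 54.5%. Searched on both strands, CANNTG, the E-box, was in all but the Plxnd1 stretch and in 58.2% of all promoters. GGGCGG, the GC box, was in all but the Ntn5 stretch and in 31.05% of all promoters, and TATAAA, the TATA box, was in none of them and in 9.96%. CCAAT was in the Epha8 stretch alone and in 29.35%. A match of letters is not evidence that a factor binds there.

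Netrins peaked in vHipp or in VTA. Ntn5, a secreted netrin at chr7:45684022-45694556, was nearly confined to vHipp, where the 6 SS libraries ran from 4.42 CPM to 26.8 with a median of 18.7. The highest library of another region was at 1.72 CPM, in PFC, and CPu, NAc and VTA stayed at or below 0.259 with some libraries at 0. The SS groups did not overlap, and the log2 difference of vHipp from the others was 6.14 ± 0.226 (SE, edgeR adjusted p = 7.64e-24), a size that rests on very few reads in CPu, NAc and VTA. BLA and PFC lay in between: their log2 differences were 1.22 and 1.55 (edgeR adjusted p = 0.00276 and 3.94e-05). All 6 SS libraries of vHipp were rich in Prox1, a dentate granule cell marker, at 75.5 to 209 CPM. In 12 vHipp libraries of other states Prox1 was at 9.72 to 25.9 CPM. There Ntn5 ran from 1.07 to 4.69 CPM, a range that takes in the 1.72 CPM of PFC. Of the exons of Ntn5, 23.42% overlap Sec1 on the other strand, and whether the counting used strand is not given in the sources used here.

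Ntn1, the classical long-range netrin, was a VTA gene with a second level in NAc. Its VTA libraries ran from 90.3 CPM to 119 with a median of 112, the NAc libraries from 36.2 to 56.5 with a median of 50.9, and no library of another region exceeded 18.3. The 3 ranges did not overlap. Against the other regions the log2 difference was 2.74 ± 0.0886 in VTA (SE, edgeR adjusted p = 2.69e-26) and 1.38 ± 0.0963 in NAc (edgeR adjusted p = 6.86e-15). NAc exceeded CPu by 1.63 ± 0.135 on the log2 scale (edgeR adjusted p = 8.34e-12). PFC and vHipp were the lowest and overlapped, with libraries of 7.48, 9.10 and 11.3 CPM in PFC and 8.15, 8.80 and 15.05 in vHipp and log2 differences of -1.46 and -1.35 (edgeR adjusted p = 8.33e-14 and 3.50e-12). Ntn4, a basement membrane netrin, was also highest in VTA, with 12.99 to 16.4 CPM there against at most 8.04 in any other library.

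The 2 netrin-G genes, membrane-anchored ligands of synaptic adhesion proteins, differed most in VTA. Ntng2 was highest in vHipp, with 34.4 to 51.6 CPM and a median of 39.8, above the 25.2 CPM of the highest SS library elsewhere. In the 12 vHipp libraries of other states with Prox1 at 9.72 to 25.9 CPM, Ntng2 ran from 18.8 to 30.0 CPM. That range takes in the 25.2 CPM. The log2 difference of Ntng2 in SS was 2.32 ± 0.137 (SE, edgeR adjusted p = 1.66e-17). Of its exons, 13.98% overlap 6530402F18Rik on the same strand. Ntng1 was highest in VTA, at 41.7, 58.5 and 81.5 CPM (lowest, median and highest library), followed by vHipp at 31.9, 45.0 and 66.0. These ranges overlapped. The log2 difference of Ntng1 was 1.47 ± 0.108 in VTA and 0.98 ± 0.112 in vHipp (edgeR adjusted p = 4.71e-15 and 1.73e-09), while Ntng2 was at -0.57 in VTA (edgeR adjusted p = 0.00351). Both were lower in CPu and in NAc.

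Of the 4 Unc5 receptors of netrins, Unc5b had its highest mean in VTA, as Ntn1 did. Unc5a, the Unc5 gene with the highest level per length, peaked in vHipp at 202, 237 and 326 CPM and was lowest in VTA at 37.9, 48.4 and 54.5. The vHipp libraries lay above all others, the next being 170.7 CPM in BLA. The log2 differences were 1.52 ± 0.0841 and -1.38 ± 0.106 (edgeR adjusted p = 2.55e-18 and 1.44e-14). Unc5d marked BLA, where its 7 libraries ran from 56.1 to 93.4 CPM with a median of 74.4. Its CPu libraries were at 7.25 to 10.51, and 1 NAc library reached 67.9, so BLA and NAc overlapped. The log2 difference of Unc5d was 1.67 ± 0.116 in BLA and -2.06 ± 0.154 in CPu (edgeR adjusted p = 1.08e-14 and 1.23e-14), and NAc exceeded CPu by 2.10 ± 0.181. Unc5c was highest in vHipp (log2 difference 0.79, edgeR adjusted p = 1.12e-09). Unc5b was at 52.9 to 98.03 CPM in VTA with a log2 difference of 1.31 ± 0.138 (edgeR adjusted p = 7.77e-11). The oligodendrocyte marker sum was highest in VTA too, and its part in the Unc5b difference was not tested.

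**Figure D2:**
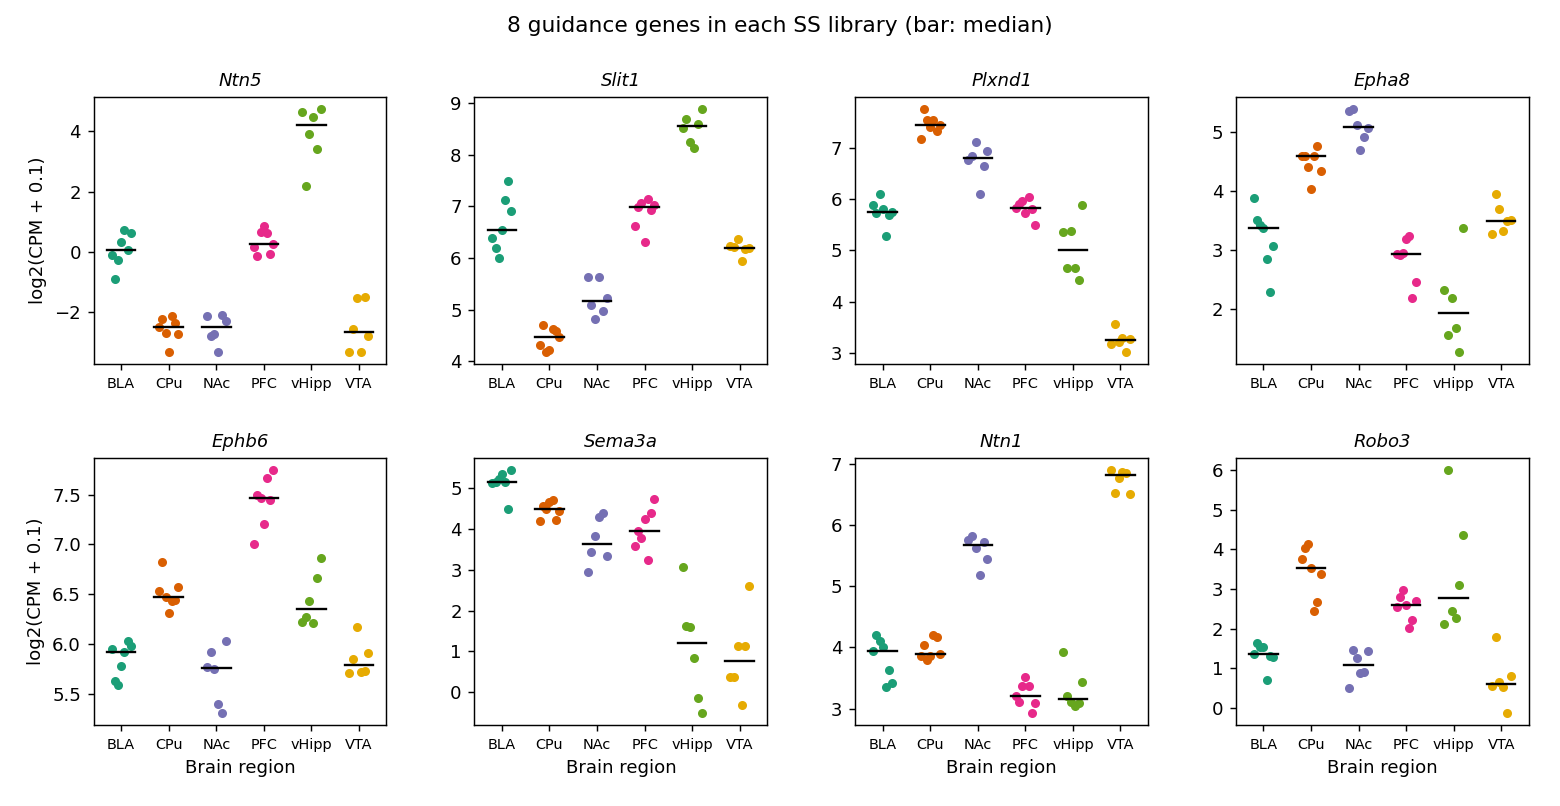
Each point is 1 SS library, placed by region and by the log2 of its CPM plus 0.1, and the bar is the median. Ntn5 and Slit1 stand highest in vHipp, Plxnd1 in CPu, Epha8 in NAc, Ephb6 in PFC, Sema3a in BLA and Ntn1 in VTA, and the Robo3 panel shows 1 vHipp library at 63.9 CPM above the other 5.

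All 3 Slits were called higher in vHipp by more than a log2 difference of 1, as were 1104 of all 17112 genes tested. Slit1 was the most abundant of the 3 Slits per length. Its vHipp libraries ran from 280.3 to 474 CPM with a median of 377, its CPu libraries from 18.0 to 26.01 with a median of 22.2, and the highest library outside vHipp was at 180.5 CPM, in BLA. vHipp overlapped with no other region. The log2 difference was 2.63 ± 0.116 in vHipp (SE, edgeR adjusted p = 2.31e-21) and -2.28 ± 0.156 in CPu (edgeR adjusted p = 9.43e-16). Slit2 was at 38.6, 63.3 and 85.6 CPM in vHipp and at 6.39, 6.96 and 10.9 in CPu, with log2 differences of 1.26 ± 0.116 and -2.40 ± 0.147 (edgeR adjusted p = 5.73e-12 and 3.43e-17). Its CPu libraries lay below every library of the other regions. NAc exceeded CPu in Slit2 by 1.71 ± 0.168 on the log2 scale (edgeR adjusted p = 4.66e-10). Slit3 was higher in CPu, at 40.1, 83.2 and 98.5 CPM (log2 difference 0.91 ± 0.119, edgeR adjusted p = 2.11e-08), where the other 2 were lower. It was lowest in VTA, at 11.9, 12.3 and 14.3 CPM, with a log2 difference of -2.30 ± 0.164 (edgeR adjusted p = 1.97e-15) and no overlap with another region.

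The Slit receptors Robo1 and Robo2 were highest in the striatum, not in vHipp. Robo2 was highest in CPu, with 144.5, 209.9 and 264 CPM against 66.8, 85.7 and 112 in vHipp. The log2 difference was 1.06 ± 0.105 in CPu and -0.47 ± 0.126 in vHipp (edgeR adjusted p = 2.70e-11 and 0.00195), and the CPu range met only that of BLA, up to 152, at its lower end. Robo1 was highest in NAc, at 108, 117 and 118 CPM, above all other libraries, the next being 92.0 in VTA. Its log2 differences were 0.71 ± 0.105 in NAc and -0.42 ± 0.116 in vHipp (edgeR adjusted p = 6.42e-07 and 0.00287).

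Robo3, a Robo family member known for commissural axons, was called higher in CPu and in vHipp, and the vHipp value leaned on 1 library. In CPu its 7 libraries ran from 5.34 to 17.5 CPM with a median of 11.5 (log2 difference 1.55 ± 0.285, edgeR adjusted p = 1.31e-05). In vHipp the values were 4.24, 4.75, 5.35, 8.42, 20.4 and 63.9 CPM. The log2 difference of 2.32 ± 0.284 in vHipp became 1.27 ± 0.235 without the highest library, that of mouse-052 (edgeR adjusted p = 7.89e-09 and 2.46e-05), and 0.39 ± 0.164 in the C24, SC, CS and CC libraries (edgeR adjusted p = 0.0302). Robo3 was lower in NAc, BLA and VTA, by log2 differences of -1.42, -1.08 and -1.77 (edgeR adjusted p = 0.00310, 0.0192 and 0.000188). Without mouse-052 the BLA difference was -0.87. Robo4, the endothelial receptor, was nearly level, between 5.98 and 13.4 CPM in all SS libraries.

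The secreted class 3 semaphorins, which act through neuropilins and plexins, held the largest log2 differences of their family. Sema3a, a repellent cue also known from perineuronal nets, was at 22.4, 35.6 and 43.5 CPM in BLA and 18.3, 22.5 and 25.9 in CPu, and at 0.703, 1.66 and 6.03 in VTA and 0.601, 2.30 and 8.35 in vHipp. BLA and CPu met at their edges, where the lowest BLA library fell among those of CPu. The log2 differences were 2.17 ± 0.224 in BLA, 1.33 ± 0.235 in CPu, -2.68 ± 0.352 in VTA and -2.17 ± 0.337 in vHipp (edgeR adjusted p = 4.93e-10, 6.73e-06, 1.45e-08 and 1.04e-06). The vHipp difference of Sema3a was -2.84 without the library of mouse-035 and -2.92 in the C24, SC, CS and CC libraries. Sema3f was highest in NAc, at 24.3, 30.5 and 39.9 CPM, and lowest in vHipp, at 1.10, 3.15 and 11.8, with log2 differences of 1.21 ± 0.174 and -2.24 ± 0.236 (edgeR adjusted p = 3.34e-07 and 2.21e-10). Sema3e, the ligand that binds Plxnd1 directly, was highest in CPu (52.6, 62.1 and 73.1 CPM) and lowest in VTA (12.95, 22.7 and 25.2), with log2 differences of 0.75 ± 0.143 and -1.12 ± 0.176 (edgeR adjusted p = 2.34e-05 and 5.74e-07). Sema3c was higher in PFC and BLA, by 0.81 and 0.71 (edgeR adjusted p = 1.11e-05 and 0.000192).

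For Sema3b the vHipp call in SS rested on 1 library, while the other libraries gave a larger difference. The SS libraries of vHipp were at 0.957, 1.45, 1.64, 2.45, 2.62 and 11.4 CPM of Sema3b. The log2 difference of 1.302 ± 0.296 (edgeR adjusted p = 0.000346) became 0.39 ± 0.267 (edgeR adjusted p = 0.237) without the library of mouse-035. In the C24, SC, CS and CC libraries the difference was 1.90 ± 0.230 (edgeR adjusted p = 4.18e-13). The vHipp library of mouse-035 also held the highest leptomeningeal marker sum in SS, 1061 CPM, where the median of vHipp was 169. Without it 29 rather than 34 genes were called higher in vHipp and 11 rather than 13 by the stricter count, with no counts over all genes given beside these. The lower call of Sema3b in BLA (-0.90, edgeR adjusted p = 0.0448) was lost with the mouse as a block (-0.77, edgeR adjusted p = 0.0808).

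The semaphorins of classes 4 to 6 are transmembrane proteins. Sema6d, of class 6, was at 173, 212 and 249.9 CPM in VTA against at most 114 in any other library (log2 difference 1.45 ± 0.0792, edgeR adjusted p = 5.51e-19). Sema4g and Sema6c were also highest in VTA, with log2 differences of 1.31 ± 0.124 and 1.06 ± 0.123 (edgeR adjusted p = 5.27e-12 and 8.60e-10), as were Sema6a and Sema4d, at 0.75 and 0.46 (edgeR adjusted p = 4.39e-07 and 4.13e-08). In S24 the mean of Sema4g was higher in BLA, at 93.7 CPM, than in VTA, at 81.9. Sema4d and Sema6a are known from oligodendrocytes, and the oligodendrocyte marker sum of the VTA libraries, given above, exceeded that of all other SS libraries. Its part in these values was not tested. Sema4d was as high in PFC in SS, at 63.7, 73.6 and 87.0 CPM against 66.3, 74.7 and 80.3 in VTA. In S24 its mean was lower in PFC, at 55.5 CPM, than in VTA, at 69.5. The oligodendrocyte marker sum in SS had a median of 6245 CPM in PFC, with libraries from 3056 to 16016, and of 17494 in VTA, from 16822 to 19873. Its part in the Sema4d values of the 2 regions was not tested. Sema5a was highest in vHipp, at 71.1, 114.7 and 199.9 CPM, and lowest in CPu, at 10.99, 16.4 and 19.1, with log2 differences of 1.54 ± 0.128 and -2.04 ± 0.160 (edgeR adjusted p = 4.11e-13 and 4.49e-14). Sema4a was higher in PFC and BLA, by 0.88 and 0.80 (edgeR adjusted p = 3.56e-11 and 1.51e-09). Sema7a, the membrane-anchored semaphorin with the highest level per length of the family, was highest in CPu at 91.8, 125.4 and 131 CPM and lowest in NAc at 36.04, 49.5 and 57.9. NAc was below CPu by a log2 difference of -1.28 ± 0.139 (edgeR adjusted p = 3.90e-09), with no overlap.

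Of the 9 plexins, the semaphorin receptors, 2 were called higher and 5 lower in CPu, and 4 higher and 1 lower in NAc (edgeR). Of all 17112 genes tested, 4774 were called higher and 5022 lower in CPu, and 3868 and 3676 in NAc. Plxnd1, the receptor of Sema3e, was at 144.4, 173 and 216 CPM in CPu, 68.5, 111.04 and 138 in NAc, and 8.03, 9.42 and 11.8 in VTA. CPu lay above and VTA below every other SS library. The log2 differences were 2.10 ± 0.106 in CPu, 1.26 ± 0.117 in NAc and -2.95 ± 0.164 in VTA (edgeR adjusted p = 1.04e-19, 1.36e-11 and 1.03e-18). Plxna1 was the reverse in CPu, with 21.3, 27.1 and 30.0 CPM there, below all other libraries, and 98.2, 193.8 and 247 in vHipp. Its log2 difference was -2.27 ± 0.149 in CPu and 1.10 ± 0.122 in vHipp (edgeR adjusted p = 2.68e-16 and 7.98e-10). Plxna3 and Plxna4 were lower in CPu too, by -1.46 ± 0.148 and -1.43 ± 0.114 (edgeR adjusted p = 4.79e-11 and 7.49e-14). Plxna2 differed from them: it was higher in CPu and NAc, by 0.49 and 0.65, and lower in VTA, by -1.44 ± 0.0989 (edgeR adjusted p = 1.43e-06, 3.80e-08 and 6.10e-16). Plxnc1, the receptor of Sema7a, was higher in NAc than in CPu by 1.24 ± 0.141 (edgeR adjusted p = 1.02e-08), the opposite of its ligand. Plxnb3, known from oligodendrocytes, was at 72.4, 96.7 and 114.6 CPM in VTA and 11.5, 18.6 and 32.6 in vHipp, the regions with the highest and the lowest oligodendrocyte marker sum, whose part in the Plxnb3 values was not tested. Its log2 differences were 1.44 ± 0.153 and -1.20 ± 0.190 (edgeR adjusted p = 9.78e-11 and 1.46e-06).

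Of the 7 ephrins, the ligands of Eph receptors, 4 were called lower in VTA and 1 higher (edgeR), and the other 2 did not pass the test there. Of all 17112 genes tested, 6014 were called lower in VTA and 5600 higher. Efnb2, which also marks arterial endothelium, was at 87.6, 112 and 127 CPM in NAc, 79.3, 94.2 and 100.03 in CPu, and 11.1, 12.1 and 13.6 in VTA, where every library lay below all those of other regions. Its log2 differences were 1.23 ± 0.0762 in NAc and -2.61 ± 0.104 in VTA (edgeR adjusted p = 2.72e-16 and 2.52e-23). Efnb1 and Efna3 were lower in VTA by more than a log2 difference of 1 as well, at -1.52 ± 0.103 and -1.13 ± 0.0973 (edgeR adjusted p = 3.28e-16 and 3.74e-13). Efnb3 was the most abundant of the 66 genes per length and one of the flattest, between 125.4 and 224 CPM in all SS libraries. Efna2 was lower in VTA by a smaller -0.36 and Efna5 higher by 0.51 (edgeR adjusted p = 0.00212 and 0.000608). Efna5 was highest in PFC (17.6, 20.3 and 22.03 CPM) and lowest in vHipp (3.26, 4.69 and 10.1), with log2 differences of 0.84 ± 0.117 and -1.29 ± 0.150 (edgeR adjusted p = 1.52e-07 and 2.36e-09). Efna1 was higher in vHipp, by 1.47 ± 0.138 (edgeR adjusted p = 1.01e-11), and by 0.89 in the C24, SC, CS and CC libraries, where 16 of the 20 stricter vHipp calls were made again.

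Of the EphA receptors, Epha8 marked the striatum. Its libraries were at 25.8, 34.0 and 41.8 CPM in NAc, 16.3, 23.9 and 27.0 in CPu, and 2.31, 3.77 and 10.3 in vHipp, and those of CPu and NAc lay above all of the other 4 regions. The log2 differences were 1.83 ± 0.154 in NAc, 1.08 ± 0.154 in CPu, -0.85 ± 0.179 in PFC and -1.64 ± 0.207 in vHipp (edgeR adjusted p = 1.23e-12, 1.33e-07, 0.000152 and 1.65e-08). Epha5 was highest in BLA, at 121.8, 150.5 and 181.5 CPM, and lowest in CPu, at 28.5, 35.03 and 42.7, without overlap between those 2 (log2 differences 1.05 ± 0.0907 and -1.46 ± 0.110, edgeR adjusted p = 5.46e-12 and 1.27e-14). Epha10, a kinase-inactive receptor, was highest in VTA (1.28 ± 0.104) and lowest in CPu (-1.51 ± 0.123, edgeR adjusted p = 9.02e-14 and 1.20e-13). Epha4, the EphA gene with the highest level per length, and Epha7 were both lower in VTA, by -1.02 ± 0.112 and -1.75 ± 0.159 (edgeR adjusted p = 2.12e-10 and 1.56e-12).

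Of the EphB receptors, Ephb6, which lacks kinase activity, marked PFC, at 129, 176 and 215 CPM, above the 116 of the highest other library. Its log2 difference was 1.37 ± 0.0808 (edgeR adjusted p = 2.41e-17). Ephb3 was higher in PFC by 0.98 ± 0.0927 and lower in CPu by -1.13 ± 0.111 (edgeR adjusted p = 1.54e-11 and 2.17e-11). Ephb1 and Ephb2 went opposite ways. Ephb1 was at 88.7, 105.2 and 110.4 CPM in CPu and 18.2, 23.0 and 26.9 in vHipp, and Ephb2 at 3.11, 4.55 and 6.04 in CPu, 21.8, 30.1 and 42.8 in vHipp and 29.6, 35.2 and 36.4 in VTA. In CPu the log2 difference was 1.15 ± 0.0853 for Ephb1 and -2.10 ± 0.126 for Ephb2, and in vHipp -1.42 ± 0.111 and 1.13 ± 0.101 (edgeR adjusted p = 9.37e-15, 1.82e-17, 8.37e-14 and 3.17e-12).

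Levels of ligands and receptors were set side by side per length, as CPM per kilobase of exon (RPKM), for 13 sets of known partners. Sema3e and Plxnd1 were both highest in CPu, at 6.72 ± 0.812 and 24.1 ± 3.11 RPKM (mean ± SD, n = 7), and both lowest in VTA, at 2.29 ± 0.510 and 1.31 ± 0.173 (n = 6). Sema5a and Plxna1 were both highest in vHipp (6.76 ± 2.76 and 20.4 ± 6.32 RPKM, n = 6) and lowest in CPu (0.863 ± 0.150 and 2.93 ± 0.323, n = 7). Ntng2 and its partner Lrrc4 were both highest in vHipp, at 10.4 ± 1.71 and 27.3 ± 3.26 RPKM. Ntn1 was highest in VTA, at 17.0 ± 2.04 RPKM, where Unc5a was lowest, at 11.2 ± 1.40. In vHipp Unc5a reached 59.3 ± 9.96 RPKM with Ntn1 at 1.59 ± 0.422. Slit1 in vHipp, at 62.6 ± 12.1 RPKM, stood beside the lowest levels of Robo1 and Robo2, 3.60 ± 0.856 and 5.19 ± 0.880. Ntng1 was highest in VTA (7.37 ± 1.62 RPKM), where Lrrc4c was lowest (15.9 ± 0.861), and Sema7a was lowest in NAc (14.6 ± 2.90), where Plxnc1 was highest (13.5 ± 2.05). In S24 the highest mean of Plxnc1 was in PFC, at 96.1 CPM against 80.8 in NAc. Efnb3 stayed between 46.6 and 60.6 RPKM, while its receptor Epha4 ranged from 12.4 in VTA to 34.1 in vHipp. These levels carry no test of a link between partners.

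**Figure D3:**
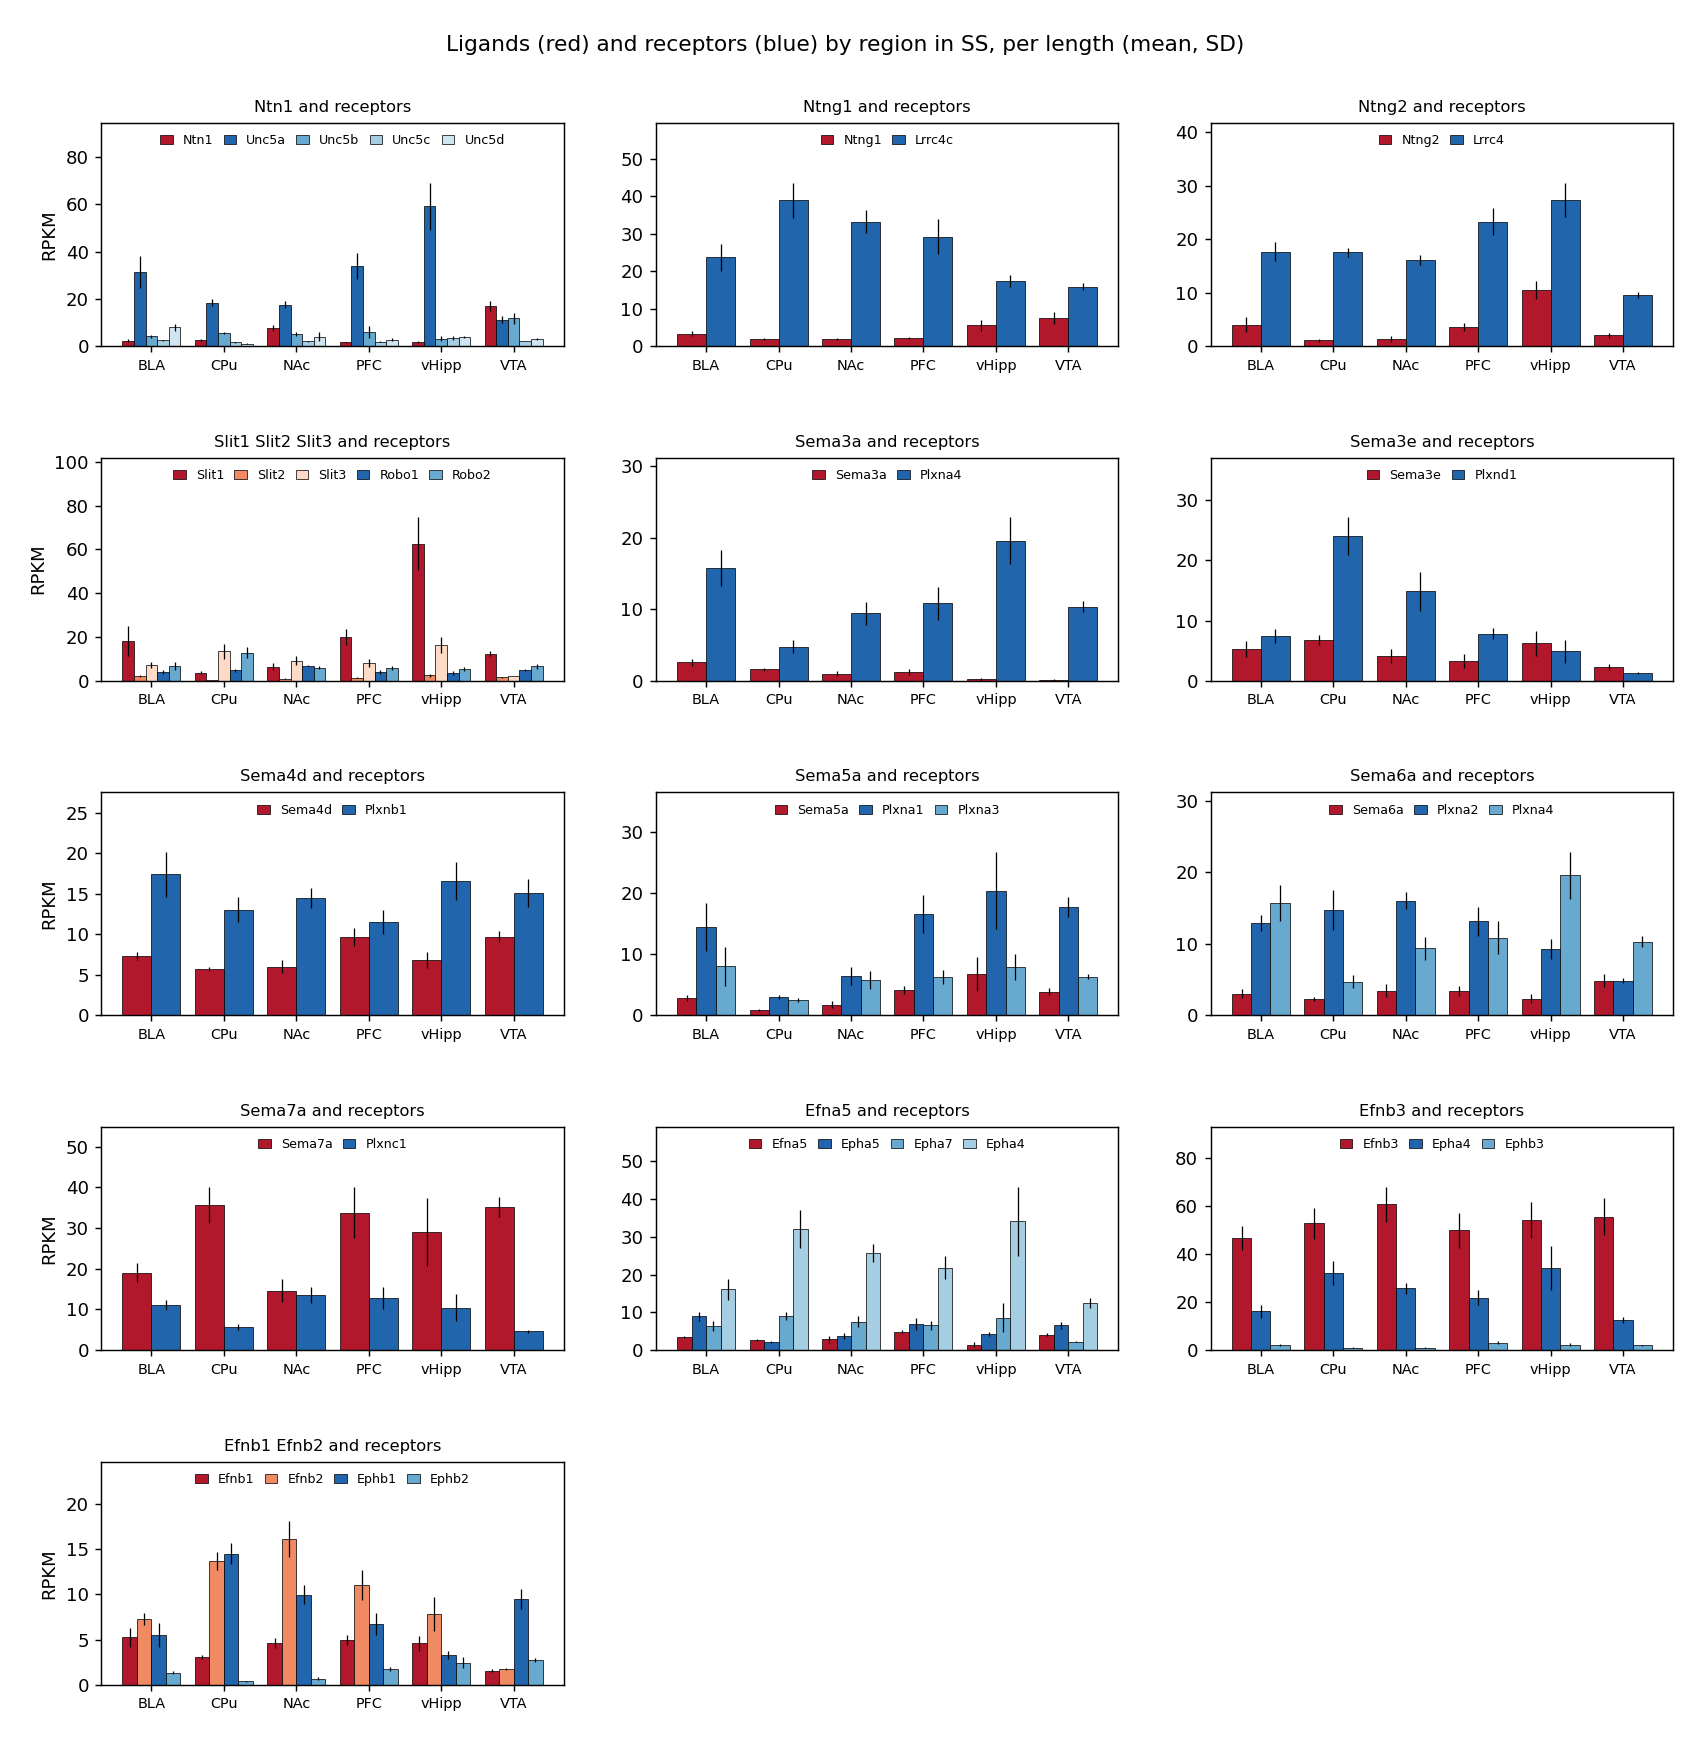
Each panel holds 1 set of known partners, with the mean RPKM over the SS libraries of each region as bars (ligands in red, receptors in blue) and the SD as lines. The Sema3e and Plxnd1 panel has both partners highest in CPu, and the panel of the Slits has Slit1 at 62.6 RPKM in vHipp above Robo1 and Robo2.

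A list of 53 other genes of guidance signalling, co-receptors, adhesion partners and downstream proteins, had 52 that differed between regions (edgeR, 87.2% of all genes). In vHipp 24 were higher and 10 lower (25.8% and 22.0% of all genes), in PFC 28 and 7 (22.8% and 19.8%), in VTA 20 and 24 (32.7% and 35.1%), in NAc 13 and 17 (22.6% and 21.5%), in BLA 12 and 9 (18.3% and 12.1%), and in CPu 11 and 25 (27.9% and 29.3%). The semaphorin co-receptors Nrp1 and Nrp2 were both higher in vHipp, with mean levels of 147 and 116 CPM and log2 differences of 2.12 ± 0.0825 and 1.67 ± 0.129 (edgeR adjusted p = 4.50e-23 and 5.73e-14), and Nrp2 was lower in CPu, by -2.46 ± 0.169 (edgeR adjusted p = 1.01e-15). Dcc, the attractive netrin receptor, was lowest in PFC, at a mean of 10.1 CPM and a log2 difference of -1.001 ± 0.156 (edgeR adjusted p = 1.31e-06). Neo1 and Dscam, also netrin receptors, had their highest means in VTA, at 149.6 and 95.9 CPM (log2 differences 0.23 and 1.05, edgeR adjusted p = 0.00294 and 5.57e-10). Among proteins that act below Eph and Robo receptors, both Ngef and Srgap1 were highest in CPu: Ngef, an exchange factor bound by Epha4, at 938 CPM (log2 difference 2.33 ± 0.0884, edgeR adjusted p = 2.88e-23), and Srgap1 at 125.2 CPM (1.80 ± 0.0854, edgeR adjusted p = 1.71e-20). Others of the downstream proteins were lower in CPu, among them Vav2 (-1.26), Arhgef11 (-0.75) and Srgap3 (-0.55, edgeR adjusted p = 9.28e-16, 6.62e-11 and 3.68e-08). Ngef was at 33.5 CPM in VTA, a log2 difference of -3.44 ± 0.142 (edgeR adjusted p = 7.13e-23).

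The same 66 genes were then compared between the states, in 6 contrasts: C24 against S24, each of CS, SC and CC against SS, then CC against CS, and an interaction, in which the SC minus SS difference was subtracted from that of CC minus CS. SS, SC, CS and CC each serve in more than 1 of them. In single regions none of the 66 genes was called in any region and contrast (edgeR, adjusted p under 0.05), nor by DESeq2 or limma fitted region by region. Of all genes edgeR called at most 2 in any of these 36 tests: 0.00587% in BLA, 0.0118% in NAc and 0.00585% in VTA for SC against SS, 0.00602% in CPu for the interaction, 0.00585% in VTA for C24 against S24, and 0.00% in the others. At an unadjusted p under 0.05, which calls genes by chance too, most were found in vHipp: 14 of 66 for CS against SS, where 14.8% of all genes passed, 11 for the interaction (11.2%) and 7 for SC against SS (9.44%). The vHipp libraries also differed in Prox1, a dentate granule cell marker, which was 75.5 to 209 CPM in the SS libraries and reached down to 10.7 in CS and 12.7 in SC. Its part in these values was not tested. In the other regions the largest were 9 of 66 in PFC (8.19% of all genes) and 8 in CPu (5.35%), both for C24 against S24. In PFC the median oligodendrocyte marker sum was 2619 CPM in S24 and 6639.7 in C24, and that of endothelium and pericytes 304.5 and 418, with overlapping ranges, and their part in the PFC values was not tested.

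Over the 6 regions together, fitted with limma voom and the mouse as a block, 2 of the 66 genes were called, both in C24 against S24 and both higher: Robo4 and Ephb4, the endothelial receptors. Of all 18927 genes 0.851% were called there, 155 of them higher and 6 lower. At an unadjusted p under 0.05 there were 5 of the 66 genes, where 8.91% of all genes passed. Averaged over its regions, each S24 mouse had 7.35 to 9.99 CPM of Robo4, with a mean of 8.31 ± 0.939 (SD, n = 8 mice), and each C24 mouse 7.78 to 13.2, with a mean of 10.1 ± 2.03. The ranges of mice overlapped. The log2 difference of Robo4 was 0.26 ± 0.063 (SE, limma adjusted p = 0.00952). It was above 0 in CPu (0.34), NAc (0.33), PFC (0.40), vHipp (0.45) and VTA (0.23) and was -0.01 in BLA. Ephb4 was at 4.08 to 6.15 CPM in S24 mice (5.04 ± 0.680) and 4.92 to 7.81 in C24 mice (6.24 ± 1.11), again overlapping, with a log2 difference of 0.28 ± 0.0759 (SE, limma adjusted p = 0.0383), above 0 in 5 of 6 regions and -0.20 in BLA. A limma F test of whether the 6 regional effects differ called none of the 66 genes in any contrast, and of all genes it called 0.0264% for CS and for SC against SS, 0.0423% for the interaction and 0.00% in the other 3.

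Both calls were fragile, and markers of endothelium and pericytes moved with them. The 8 markers were all higher in C24, with a median log2 difference of 0.16, and 3 were called by limma: Abcb1a (0.29), Pecam1 (0.24) and Slco1a4 (0.20). Their summed level was 321 to 433 CPM in S24 mice (365 ± 34.6, SD, n = 8) and 351 to 537 in C24 mice (409.6 ± 59.6). In C24 mouse-203 had the highest marker sum and the highest Ephb4, and without it neither gene was called. The same held without mouse-223 of C24 and without mouse-204 of S24. Ephb4 alone also lost its call without any 1 of mouse-175, mouse-183 and mouse-214 of C24 or mouse-185, mouse-193, mouse-201 and mouse-205 of S24 (limma adjusted p = 0.0522 to 0.132). Without the libraries that stood apart the limma adjusted p was 0.140 for Robo4 and 0.294 for Ephb4, and with 1 mean per mouse 0.617 and 0.524. In these 2 fits 85 of 19033 and 0 of 18927 genes were called in all, so the loss was not particular to Robo4 and Ephb4. The part of vessel content in the 2 differences was not tested.

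**Figure D4:**
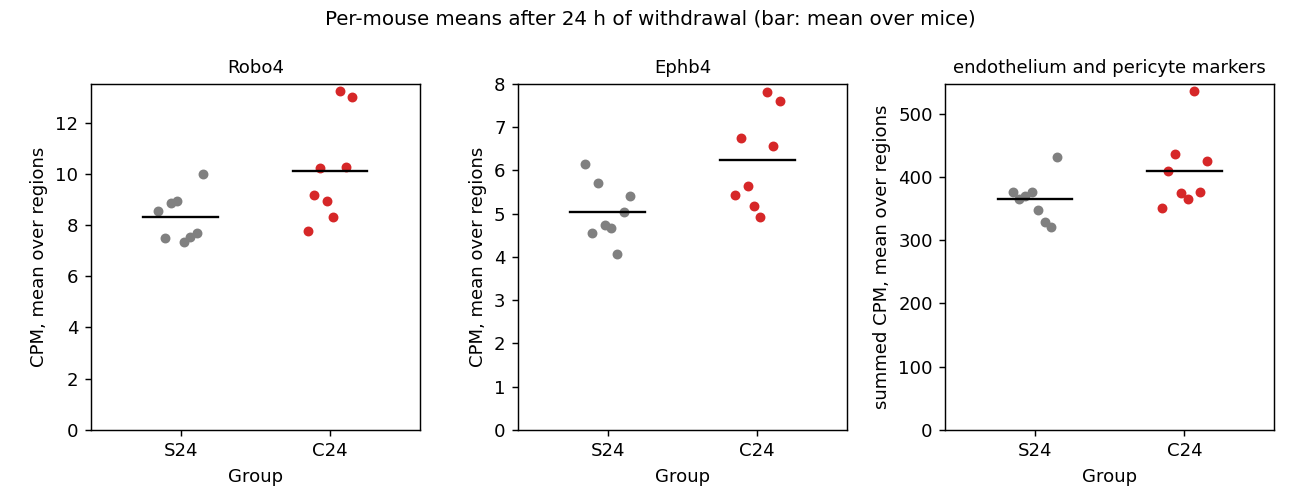
Each point is 1 mouse, the mean over its 4 to 6 regions, in S24 and C24 (8 mice each), for Robo4, Ephb4 and the summed level of 8 endothelium and pericyte markers, in CPM, with a bar at the mean over mice. The C24 points reach higher in all 3 panels and overlap with S24 in each.

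The other contrasts called none of the 66 genes over the 6 regions by limma, where 0.0581%, 0.111%, 0.0317%, 0.00% and 0.0423% of all genes were called (first CS, SC and CC against SS, then CC against CS, last the interaction). In the same order, 2, 1, 4, 1 and 0 of them passed an unadjusted p under 0.05, where 4.45%, 5.18%, 7.54%, 2.26% and 2.95% of all genes did. The smallest p in each belonged to Ephb1 in CS (log2 difference -0.14, limma adjusted p = 0.963), to Sema5a in SC (-0.21, limma adjusted p = 0.934) and to Efna2, an ephrin-A, in CC against SS (-0.19, limma adjusted p = 0.330). Efna2 (-0.12) and Sema5a (0.30) also had the smallest p for CC against CS and for the interaction (limma adjusted p = 1.00 for both). The median log2 difference of the 66 genes lay between -0.03 and 0.01 in all 6 contrasts. None of the 53 other guidance genes was called in any contrast, by edgeR in single regions (0 to 6 passed an unadjusted p under 0.05) or by limma over the 6 regions (1 to 6).

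**Figure D5:**
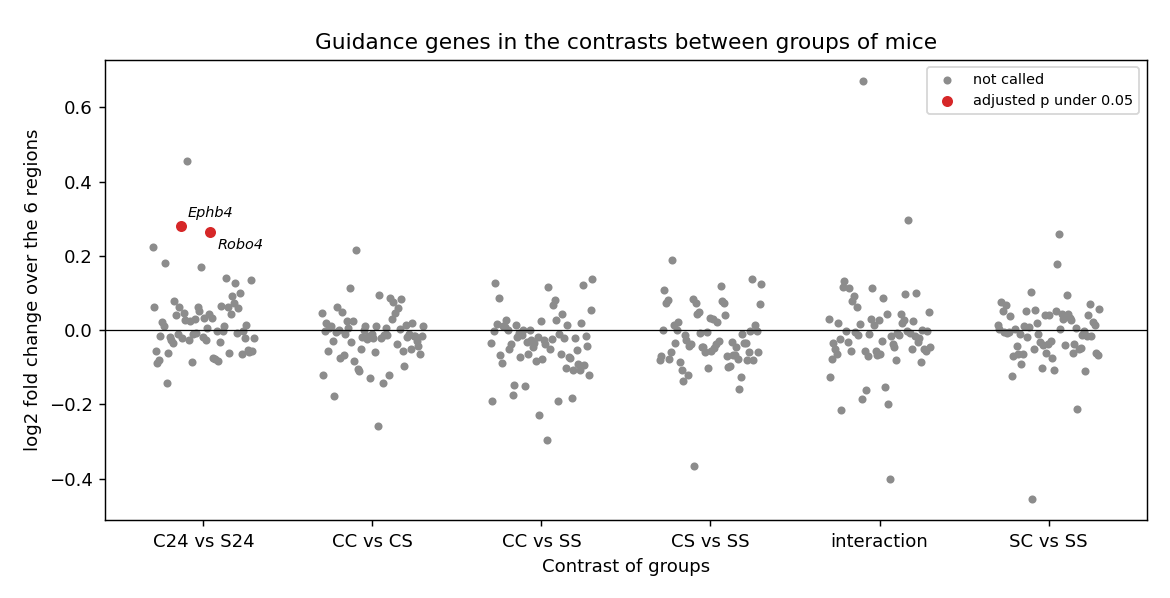
Each point is 1 of the 66 genes, placed by contrast and by its log2 difference averaged over the 6 regions (limma), with called genes in red. Robo4 and Ephb4 in C24 against S24, at 0.26 and 0.28, are the only red points.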

How the data were processed

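Total RNA of 230 tissue samples was sequenced after rRNA depletion with the ScriptSeq Complete Gold kit, per the labels' protocols (the molecule label names polyA RNA). The authors deposited raw counts per gene in 1 table of all libraries, and the submitters' processing notes name HTSeq, limma and mm10 without versions. Aligner, annotation release and strand setting are not given in the sources used here.

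The number in a library's title was read as its mouse. CPM were scaled by TMM over all libraries, and RPKM used exon lengths of GENCODE M21. Region and single-region tests used edgeR 4.0.16 (quasi-likelihood, robust, TMM, filterByExpr with a minimum count of 10 and total of 15), the 6-region tests limma 3.58.1 (voom, mouse as block, consensus correlation 0.0398), in R 4.3.3, with Benjamini-Hochberg adjustment over all genes and a threshold of 0.05. DESeq2 1.42.0, other filters and left-out libraries or mice were alternatives. The scripts were tested on simulated data without mouse effects, where the 6-region fit was run without the block, so the blocked fit was not tested.

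Same-mouse libraries of different regions deviated together little in SS (median correlation over genes 0.0435 in 79 pairs, 24 of them over 0.1, against -0.00254 in 554 pairs of different mice), and the title gives the pairing. P-values measure the spread between libraries. The genes, partner sets, marker lists and the 53 other genes were chosen with earlier results of these data known. Named were genes called between states, those with the smallest p in each contrast, the 3 highest and 2 lowest called in each region, the highest of each family per length, the partners, and genes beside the level threshold. Others named were chosen after their values were seen.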

Additional observations from a re-analysis of the deposited data

Results flagged for a closer look

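In 100 groups, the SS libraries of each region for 16 genes and the mouse means of Robo4 and Ephb4 in S24 and in C24, the highest or lowest value lay far from the others in 12, by Dixon's 95% criterion, where chance gives about 1 in 20. That rate holds for independent groups of normally distributed values. Here the groups shared libraries and CPM were taken without a log, so the 2 rates cannot be compared. Mouse-035 stood out 5 times, always as the highest: Ntn1 in vHipp at 15.05 CPM (others 8.15 to 10.7), Sema3a in vHipp at 8.35 (0.601 to 3.01), Sema3b in vHipp at 11.4 (0.957 to 2.62), Sema3b in VTA at 7.91 (1.08 to 2.32) and Robo3 in VTA at 3.37 (0.814 to 1.64). Its vHipp library had a leptomeningeal marker sum of 1061 CPM, whose part in these values was not tested. Mouse-162 was the highest 4 times: Epha8 in vHipp at 10.3 CPM (others 2.31 to 4.87), Sema3f in vHipp at 11.8 (1.10 to 4.24), Sema3a in VTA at 6.03 (0.703 to 2.11) and Slit2 in PFC at 42.6 (26.6 to 33.3). Robo3 in vHipp reached 63.9 CPM in mouse-052 (others 4.24 to 20.4), and Ntng2 in NAc 9.24 in mouse-122 (3.60 to 5.07). Sema3a in BLA was lowest in mouse-143, at 22.4 CPM (34.6 to 43.5).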

How the results depend on the processing

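Among the called region differences of the 66 genes, 1 changed sign in an alternative: the small vHipp difference of Robo4 (0.24) was -0.20 in the C24, SC, CS and CC libraries (edgeR adjusted p = 0.00407). Fitting the mouse number as a replicate block took the lower genes of PFC from 11 to 7 and moved no other count by over 1.5 times. The C24, SC, CS and CC libraries gave 21 lower genes in BLA rather than 13, 18 in PFC rather than 11, 23 lower in BLA, PFC and vHipp against CPu and NAc rather than 15, 4 higher by the stricter count in NAc against CPu rather than 7, and 0 lower by it in BLA rather than 1. That last count, Robo3, was also 0 with limma and, in an alternative chosen after seeing the data, without the vHipp library of mouse-052. For these alternatives of the region tests no counts over all genes are given. SS also has fewer libraries than C24, SC, CS and CC together, so the changed counts do not set the 66 genes apart. Sema3b in BLA was no longer called with the block, with limma, without the filter and in the other libraries. The 2 genes called in C24 against S24 were 0 without the libraries that stood apart and 0 with 1 mean per mouse, and 0 to 3 when each mouse was left out in turn. No SS library stood apart, so that alternative gave no value for the regions. Thresholds of 0.5 and 2 CPM gave 69 and 65 genes.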

Other observations

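The vHipp libraries differed in their content of Prox1, a marker of dentate granule cells, and fell into 2 clusters: 12 libraries at 9.72 to 25.9 CPM and 27 at 51.2 to 217. The lower cluster held 3 of 7 S24, 1 of 8 C24, 0 of 6 SS, 4 of 7 SC, 3 of 6 CS and 1 of 5 CC libraries. Ntn5 was at 1.07 to 4.69 CPM in the lower cluster and 2.93 to 26.8 in the higher. Within them, over mice of all states, Ntn5 and Prox1 had a Pearson r of 0.71 (n = 12, permutation p = 0.0104, adjusted over 12 relations 0.0418; Spearman's rho 0.64, permutation p = 0.0301, adjusted 0.0764) and 0.61 (n = 27, permutation p = 0.00051, adjusted 0.00612; rho 0.69, permutation p = 0.0001, adjusted 0.0012). Without the 2 libraries farthest from the median, r was 0.51 and 0.56. For Ntng2 r was 0.64 and 0.52 (permutation p = 0.0266 and 0.00616, adjusted 0.0799 and 0.0370; rho 0.76 and 0.57, adjusted 0.0243 and 0.0130), and 0.36 and 0.48 without those libraries. Slit1 had 0.35 and 0.19 (adjusted permutation p = 0.347 and 0.393). Robo3, Sema3f and Sema3a also had no adjusted permutation p of r under 0.05. The vHipp libraries that stood apart were kept in these relations. Those of mouse-043, mouse-053, mouse-055 and mouse-182, apart in choroid plexus markers, were in the lower cluster. There mouse-055 had the lowest Ntn5 and Ntng2, and mouse-053 the lowest Prox1. Those of mouse-091, mouse-171, mouse-191 and mouse-223, apart in other markers, were in the higher cluster. All the relations were chosen after seeing the data, and the clusters were set from it.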
